A study of Mus musculus with 2 samples.

Results

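The nuclear genes that encode subunits of the respiratory chain and of ATP synthase were examined for open promoter chromatin in mouse calf muscle. Members were the protein-coding genes of GENCODE release 21 (mm10) whose symbols name a subunit: Nduf genes of complex I, Sdha to Sdhd of complex II, Uqcr genes of complex III, Cox4 to Cox8 genes of complex IV and Atp5 genes of complex V, the ATP synthase. The rule took 86 of 21851 gene models, with 85 distinct symbols, because Atp5o has a second, read-through model. Complex I had 38 members, complex II had 4, complex III had 8, and complexes IV and V had 18 each. The rule used symbols and no measured value. Subunits that mitochondrial DNA encodes were not among the members.

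Chromatin was mapped by DNase-seq, in which DNase I cuts accessible DNA in isolated nuclei, in the gastrocnemius of 2 male B6CASTF1/J mice, each 36 days old. These animals are F1 hybrids of the C57BL/6J and CAST/EiJ strains and carry no transgene or treatment that the labels name. The labels describe a single group, with 1 library per animal, called replicate 1 and replicate 2 here, so no condition was compared. Nuclei came from whole tissue, so each value sums over every cell type of the muscle.

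The respiratory chain passes electrons from NADH (complex I) and succinate (complex II) through ubiquinone to complex III, then through cytochrome c to complex IV, which reduces oxygen, and the proton gradient built on the way drives ATP synthase. Nearly all of its subunits are needed in every cell, and their promoters are known targets of NRF1, of GABP (an ETS factor also called NRF2), of YY1 and of the oestrogen-related receptors (ERR), which PGC-1 coactivators join. A few subunits of complex IV come in tissue isoforms: Cox6a2, Cox7a1 and Cox8b are the heart and skeletal muscle forms of subunits whose general forms are Cox6a1, Cox7a2 and Cox8a.

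The promoters of these isoforms are printed first because the largest differences between related members lay there. Each line gives the 150 bases before the GENCODE start site, 5′ to 3′ on the gene's strand, from RefSeq's GRCm38.p6 (mm10) genome. Sequences are printed only of members with an entry in RefSeq's promoter table, which were 69 of 86. All positions relative to a start site are counted from the GENCODE site. Capitals mark bases inside a footprint (a short stretch that the authors called as protected from cleavage) in both libraries. Cox6a2 is named only.

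Cox7a1 (chr7:30183994-30184143, plus strand): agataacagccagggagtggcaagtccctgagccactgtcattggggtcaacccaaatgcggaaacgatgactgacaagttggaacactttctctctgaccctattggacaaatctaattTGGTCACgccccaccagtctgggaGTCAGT
Cox8b (chr7:140900447-140900596, minus strand): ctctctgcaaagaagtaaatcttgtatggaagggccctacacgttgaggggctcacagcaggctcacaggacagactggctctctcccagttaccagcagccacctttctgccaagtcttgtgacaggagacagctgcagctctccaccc
Cox6a1 (chr5:115348982-115349131, minus strand): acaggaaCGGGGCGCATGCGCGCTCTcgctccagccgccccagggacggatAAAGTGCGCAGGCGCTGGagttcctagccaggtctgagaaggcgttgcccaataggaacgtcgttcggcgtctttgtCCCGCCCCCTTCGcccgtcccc
Cox7a2 (chr9:79759879-79760028, minus strand): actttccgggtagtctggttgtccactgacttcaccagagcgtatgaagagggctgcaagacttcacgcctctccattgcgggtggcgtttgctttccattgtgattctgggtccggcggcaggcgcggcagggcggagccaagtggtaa
Cox8a (chr19:7217617-7217766, minus strand): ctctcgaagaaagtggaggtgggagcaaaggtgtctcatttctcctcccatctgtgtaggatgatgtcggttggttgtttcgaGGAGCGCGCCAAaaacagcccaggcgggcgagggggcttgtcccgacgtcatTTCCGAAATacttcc

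In these stretches, footprints of both libraries covered 50 bases of Cox6a1, 21 of Cox8a and 13 of Cox7a1, and 0 of Cox7a2 and Cox8b. The Cox6a1 stretch is rich in CG and holds the NRF1 core inside a footprint, whereas the Cox8b stretch has almost no CG and a CAGCTG E-box near its end.

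Next come matches to short motifs, each with 10 bases on either side and the match in capitals, on the gene's strand of the same build. The first set holds the 6 members that rank highest, by the lower of their percentiles in both libraries, among those with a match in a footprint of both libraries, and 1 match of each is shown. Where the capitals show the motif read on the other strand, Sp/Klf appears as CCGCCC in place of GGGCGG, ETS as CTTCCGG in place of CCGGAAG, ERR as TGACCTT in place of AAGGTCA and the TATA box as TTTATA in place of TATAAA.

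Ndufv3, Sp/Klf (chr17:31519966-31519991, plus strand): caaatcggagGGGCGGgactttcagc
Ndufa8, Sp/Klf (chr2:36049444-36049469, minus strand): caggagatgtGGGCGGagaccagatg
Cox6a1, NRF1 (chr5:115349102-115349129, minus strand): aggaacggggCGCATGCGcgctctcgct
Atp5b, CCAAT (chr10:128083222-128083246, plus strand): gcaaaatcacCCAATtactgtgcct
Atp5g2, NRF1 (chr15:102671071-102671098, minus strand): gctccggccgCGCATGCGcagagccttc
Ndufa7, TATA (chr17:33824510-33824535, plus strand): ggggatgcctTTTATAgtcggctctg

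The second set was chosen after the values were seen, to show the motifs of the factors named above and of the cyclic AMP response element (CRE). The NRF1, ETS and CRE matches in it lay in a footprint of both libraries, and the YY1 and ERR matches did not. Starts of the YY1 matches shown lay 11 to 37 bp after the start site, and 5 of the 6 ERR matches shown lay within 50 bp of it. Other printable matches over 50 bp from the start site were left out, of YY1 at Atp5h and of ERR at Ndufs5 and Ndufb2. The positions in these lines thus follow from the choice, and positions of all matches are counted further below.

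Ndufa11, NRF1 (chr17:56717693-56717720, plus strand): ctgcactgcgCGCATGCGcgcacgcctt
Uqcr11, NRF1 (chr10:80406809-80406836, minus strand): atcgccttcaCGCATGCGctatacgtct
Atp5k, NRF1 (chr5:108434431-108434458, minus strand): ttcactgcggCGCATGCGcctttctggc
Atp5l, NRF1 (chr9:44920966-44920993, minus strand): aaaccaataaCGCATGCGcatttccccc
Uqcrh, ETS (chr4:116075064-116075090, minus strand): gtatgccgcaCTTCCGGccaggtcgcc
Cox6a1, ETS (chr5:115348958-115348984, minus strand): cccatttccgCTTCCGGcgcgccggtg
Ndufb2, CRE (chr6:39592541-39592568, plus strand): tgcgacgcagTGACGTCAcgggccggga
Atp5d, CRE (chr10:80141382-80141409, plus strand): ggcagggtgaTGACGTCAtgaccgagag
Uqcrfs1, CRE (chr13:30545328-30545355, minus strand): ggcgtcgcgcTGACGTCAcaaaccctgc
Ndufa10, CRE (chr1:92473808-92473835, minus strand): cactcagtggTGACGTCAtggcagcgcg
Ndufb8, YY1 (chr19:44555387-44555414, minus strand): ggagaaggtgAAGATGGCtgccgcccgg
Ndufa9, YY1 (chr6:126849098-126849125, minus strand): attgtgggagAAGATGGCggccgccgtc
Ndufs6, YY1 (chr13:73328432-73328459, minus strand): ggtcaccggcAAGATGGCggcggtgctg
Ndufa3, YY1 (chr7:3617385-3617412, plus strand): cgccaagaacAAGATGGCcgggagtaag
Atp5e, ERR (chr2:174464061-174464087, minus strand): tactcaggccTGACCTTcctgctgccg
Ndufb4, ERR (chr16:37654407-37654433, minus strand): cctgagcctgAAGGTCAgactcgagag
Ndufs6, ERR (chr13:73328417-73328443, minus strand): gcggcggtgcTGACCTTccgccggctg
Sdhd, ERR (chr9:50603797-50603823, minus strand): ggttgtagagTGACCTTgagccctcga
Atp5l, ERR (chr9:44920739-44920765, minus strand): aggggcagccTGACCTTggaaatgggg
Atp5g3, ERR (chr2:73911362-73911388, minus strand): tgttacaaagTGACCTTgagcgtcttc

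Replicate 1 had 50760 peaks and replicate 2 had 49230 in the shorter of the authors' lists per library, which were the main lists. A gene was counted as open where any of its coding start sites had a peak no more than 500 bp away, and its value was the authors' signal of the highest such peak. This held for 12197 genes in replicate 1 and 12478 in replicate 2. The scaling between libraries is not stated and the depth in reads is unknown, so values were ranked within a library: a percentile of 100 is the highest of the open genes. Markers of muscle fibres were open in both libraries at 7 of 8 genes (Tnnt3 in replicate 1 only), with percentiles of 24.8 to 57.9 in replicate 1 and 17.4 to 44.4 in replicate 2. The markers of heart (Gata4, Nppa and Myh6) and of blood cells (Ptprc, Cd3e and Adgre1) were open in neither library, those of fibro-adipogenic progenitors at 3 of 3 genes and those of endothelium at 2 of 4. The part of these other cells in the members' values was not tested.

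Promoters of 79 of the 86 members (91.9%) were open in both libraries, beside 54.2% of all protein-coding genes. By complex these were 37 of 38 members of complex I, 4 of 4 of complex II, 8 of 8 of complex III, 14 of 18 of complex IV and 16 of 18 of complex V. The highest peaks of both libraries overlapped at 77 of the 79, a count that was not made over all open genes. Values of these members ran from 0.986 to 14.4 in replicate 1 with a median of 7.13, and from 0.743 to 11.0 in replicate 2 with a median of 4.97. Over all genes open in both libraries the medians were 5.73 and 3.95. The members' median percentile was 61.9 in replicate 1 and 65.9 in replicate 2, beside 51.4 and 52.5 for all genes open in both. In both libraries 51 of 79 members (64.6%) lay above the median, beside 45.8% of the genes open in both. Above the 75th percentile were 24 of 79 (30.4%) in replicate 1, beside 25.8% of the genes open in both, and 28 of 79 (35.4%) in replicate 2, beside 26.3%. In both libraries at once these were 16 of 79 (20.3%), beside 20.0%. In bulk tissue, fewer nuclei with an open promoter and less opening in each nucleus cannot be told apart.

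**Figure D1:**
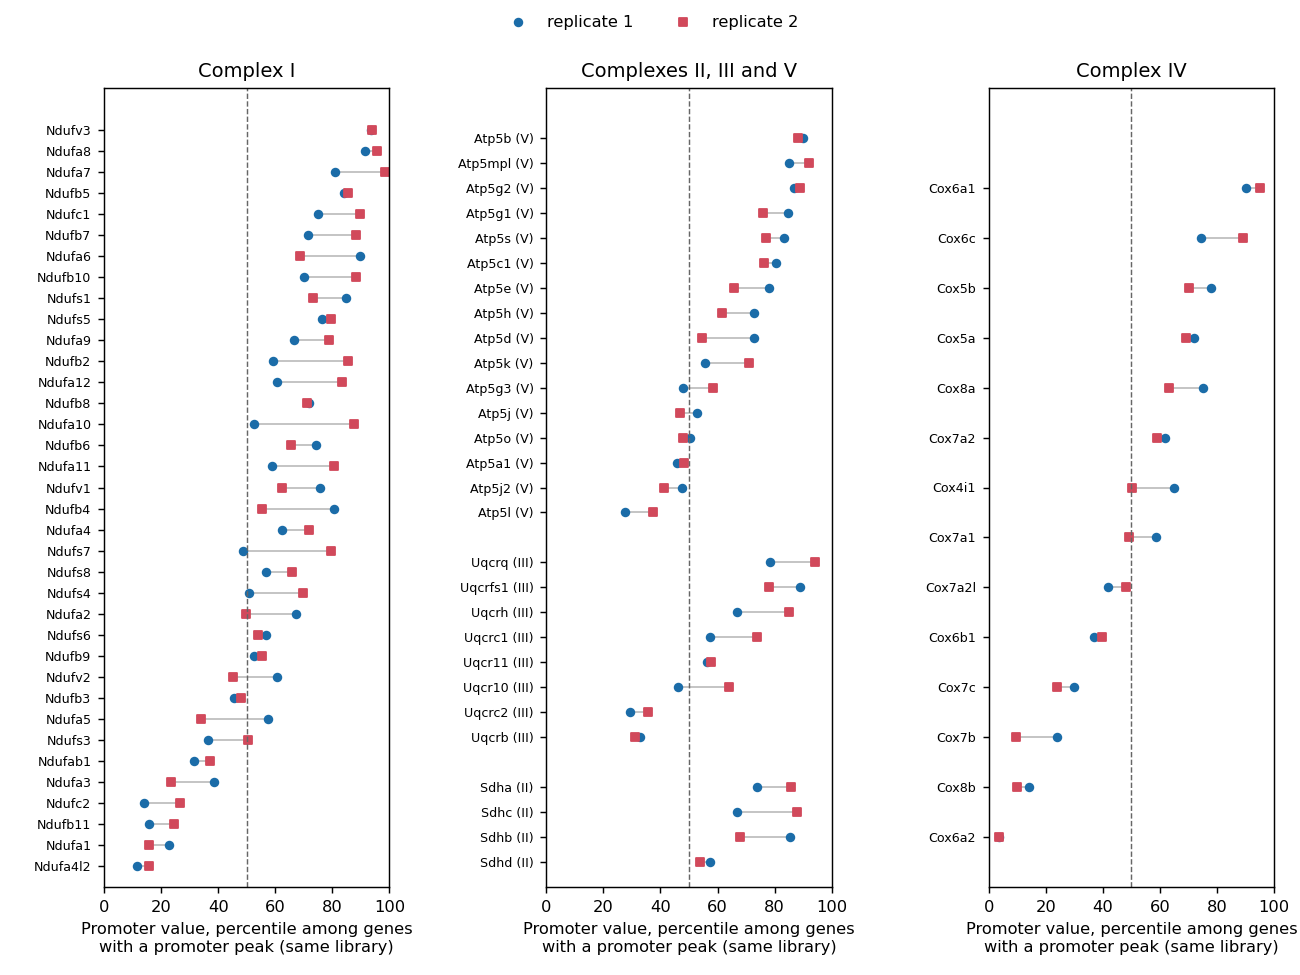
Promoter value of members open in both libraries (all but 1 of the 79), as a percentile among genes with a promoter peak in the same library (x axis), with circles for replicate 1, squares for replicate 2 and a grey line joining them. The dashed line is the 50th percentile. Cox6a2 lies lowest, at 3.76 and 3.61, and Ndufv3 has the highest lower value, 93.7.

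The animals ranked most members alike, and some apart. The percentile of a member differed between libraries by a median of 9.59 points, beside 7.03 for all genes open in both. The difference was over 20 points at 9 of 79 members (11.4%), beside 10.3%, with 6 higher in replicate 2 and 3 higher in replicate 1. The widest was at Ndufa10, an accessory subunit, whose percentile was 52.5 in replicate 1 and 87.6 in replicate 2. With 1 library per animal, biological and technical spread cannot be told apart.

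In complex I, the entry point for NADH, the median percentile was 60.6 in replicate 1 and 69.6 in replicate 2. Among the highest members were Ndufv3, of the NADH-oxidising flavoprotein part, with values of 14.4 and 8.63 in replicates 1 and 2, and the accessory subunit Ndufa8, with 13.5 and 9.30. The accessory subunit Ndufb5 had 11.2 and 7.01. The lowest percentile of these 3 in either library was 84.2. Ndufa7 had the highest value of any member in replicate 2, 11.0, beside 10.4 in replicate 1. Ndufa8, Ndufb5 and Ndufa7 shared their replicate 1 promoter peak with an opposite gene (Morn5, Mrpl47 and Rps28). At the low end were Ndufa4l2, a relative of Ndufa4 known for its induction by hypoxia, with 1.65 and 1.53, and the membrane-arm subunit Ndufc2, with 1.86 and 2.20. Ndufa4 itself, which is now placed in complex IV by many authors, had 7.21 and 5.51, 4.37 and 3.62 times the Ndufa4l2 values of the same library. These Ndufa4l2 values are those at its GENCODE start. A region 34 bp from its RefSeq start, further upstream, had 2.39 and 2.77, so the contrast depends on the annotation.

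Complex II, succinate dehydrogenase, was open at each of its genes. The flavoprotein gene Sdha had values of 9.02 and 7.07, the iron-sulphur gene Sdhb 11.5 and 5.16, and the membrane anchors Sdhc 7.84 and 7.37 and Sdhd 6.47 and 4.05. Sdhd was the lowest of the 4 in each library, at the 57.5th and 53.9th percentiles. In complex III, which hands electrons to cytochrome c, the median percentile was 56.8 and 68.9. Uqcrq (9.91 and 8.73), Uqcrfs1 (12.5 and 6.11), which encodes the Rieske iron-sulphur protein, Uqcrh (7.84 and 6.95) and the core protein gene Uqcrc1 (6.47 and 5.67) were highest. The other core protein gene, Uqcrc2, had 3.27 and 2.82, and Uqcrb had 3.60 and 2.49. The core pair of complex III thus stood apart in both animals: Uqcrc1 was at the 57.5th and 73.8th percentiles and Uqcrc2 at the 29.3rd and 35.8th.

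Complex IV, cytochrome c oxidase, had the widest spread of percentiles, from Cox6a1 near the top of the range to Cox6a2 at its bottom. Its median percentile was 60.3 in replicate 1 and 49.7 in replicate 2. The highest members were Cox6a1 (12.9 and 9.06), Cox6c (9.12 and 7.60), Cox5b (9.83 and 5.36) and Cox5a (8.69 and 5.27). The muscle form Cox6a2 was the lowest, and the X-linked Cox7b (2.76 and 1.12) was the second lowest by the lower of its percentiles, just under the muscle form Cox8b.

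Of the 3 muscle forms in complex IV, 2 had far lower promoter peak values than their general partners and 1 had a similar value. Cox6a2 had values of 0.986 in replicate 1 and 0.743 in replicate 2, beside 12.9 and 9.06 at Cox6a1, so that the general form had 13.1 and 12.2 times the value of the muscle form in the same library. Cox8b had 1.87 and 1.14, beside 9.28 and 4.77 at Cox8a, which had 4.95 and 4.17 times its value. Both muscle forms were thus far below their general partners in both animals. Cox7a1 had 6.65 and 3.71, beside 7.13 and 4.40 at Cox7a2, a ratio of only 1.07 and 1.18. Among the muscle forms, Cox7a1 alone had a peak value near that of its partner. The related Cox7a2l, which encodes a factor of respirasome assembly, had 4.56 and 3.65.

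**Figure D2:**
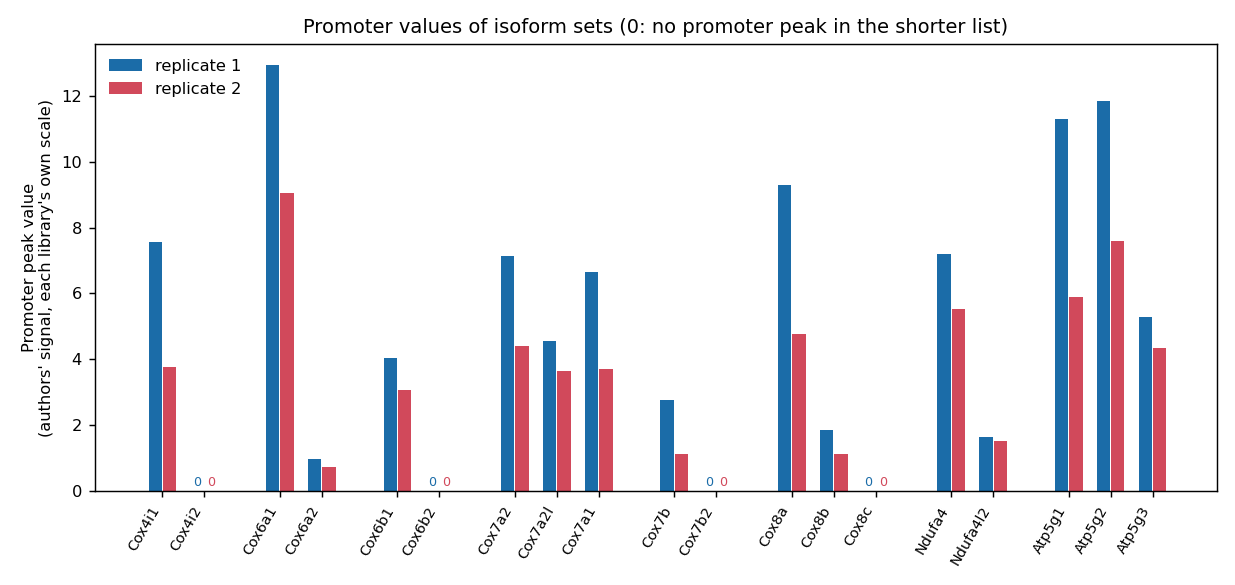
Promoter peak value (y axis, the authors' signal on each library's own scale) of the isoform sets, with blue bars for replicate 1 and red bars for replicate 2, and 0 where no peak of the shorter list lay within 500 bp of a start site. Cox6a1 stands at 12.9 and 9.06 and Cox6a2 at 0.986 and 0.743.

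Positions were compared as well as heights. The muscle and general forms lie on chromosome 7 (Cox6a2 at 128205435 to 128206387, Cox7a1 at 30184144 to 30186078 and Cox8b at 140898945 to 140900446), chromosome 5 (Cox6a1), chromosome 9 (Cox7a2) and chromosome 19 (Cox8a). The highest Cox6a2 peaks of the libraries did not overlap: in replicate 1 the peak spanned the start site (128206284 to 128206463), and in replicate 2 it lay in the gene (128205821 to 128206040). Replicate 2 also had a Cox6a2 peak within 250 bp of the start site that was nearly as high (0.723 beside 0.743). With any promoter peaks of the libraries required to overlap by 1 bp, the count of open members was still 79. At Cox6a1, Cox7a1, Cox7a2, Cox8a and Cox8b the highest peaks of the libraries overlapped and reached the start site. The q-values around the start site, which come from the same libraries as the peak values, separated the pairs too. The lowest q-value within 500 bp was 2.37e-115 and 1.53e-83 at Cox6a1 and 1.27e-05 and 5.9e-05 at Cox6a2. It was 7.51e-39 and 1.47e-27 at Cox8a and 1.8e-08 and 2.79e-06 at Cox8b. Cox7a2 had 8.87e-46 and 8.24e-45 and Cox7a1 7.13e-36 and 1.51e-13, so by this measure the pair with similar peak values also differed, most in replicate 2. Where only peaks at or above their library's median value were counted, Cox6a2 had no promoter peak in either library and Cox8b had none in replicate 2. Those medians were 1.763 in replicate 1 and 1.327 in replicate 2, so this restates the peak values above. The 7 fibre markers open in both libraries had higher percentiles than Cox6a2 and Cox8b.

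**Figure D3:**
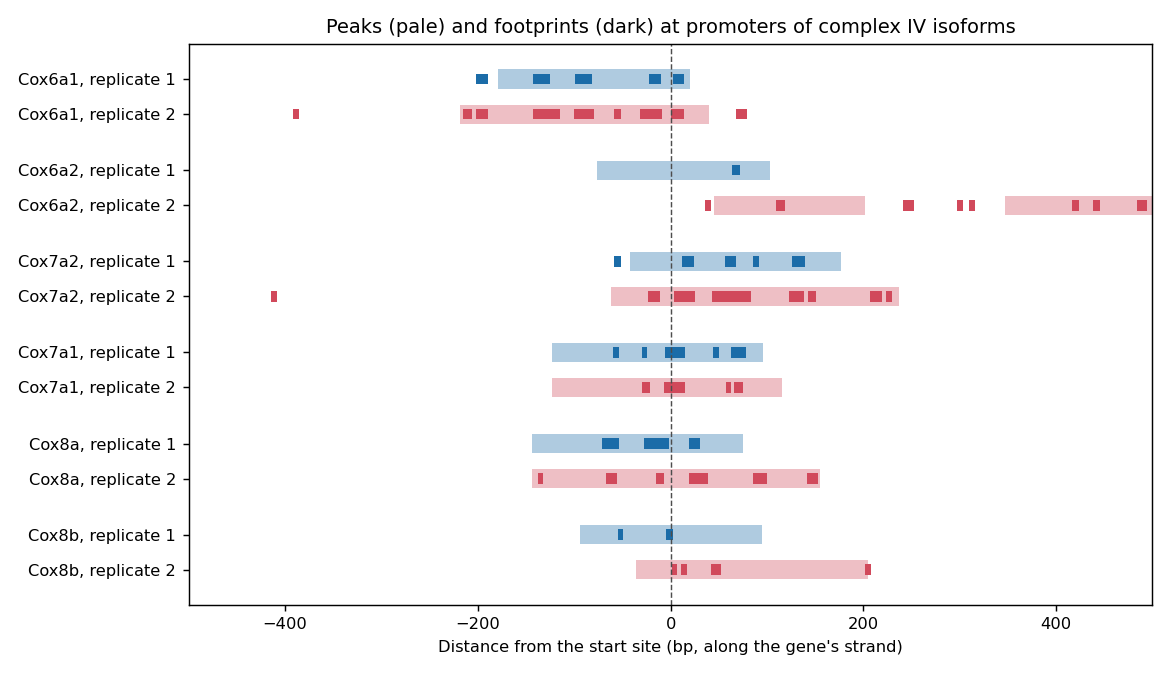
Peaks (pale bars) and footprints (dark bars) within 500 bp of the start site (x axis, bp along the gene's strand, with the dashed line at the start site) for 3 pairs of complex IV isoforms, blue for replicate 1 and red for replicate 2. Cox6a1, Cox7a1, Cox7a2 and Cox8a have overlapping peaks at the start site with 3 to 4 shared footprints, Cox8b has 1, and the highest Cox6a2 peaks do not overlap. Replicate 2 has another Cox6a2 peak that is nearly as high (0.723 beside 0.743).

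The remaining isoform pairs had an open general form and a closed second form. Cox4i1 had 7.57 and 3.79, and Cox4i2, known from lung and from hypoxia, had no peak. Cox6b1 had 4.04 and 3.08, and the testis form Cox6b2 had none. Cox7b had 2.76 and 1.12 and Cox7b2 none, and the testis form Cox8c had none. Below the threshold of the shorter lists the closed forms differed. Cox6b2 had 290 bases below a q-value of 0.05 within 500 bp of its start site in replicate 1 and 329 in replicate 2 (lowest 0.00128 and 0.0012), Cox4i2 had 130 and 0, and Cox7b2 and Cox8c had 0 in both. The longer lists, called at a looser threshold, gave Cox6b2 a promoter peak in both libraries.

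In complex V the median percentile was 72.7 and 63.7. The catalytic beta subunit gene Atp5b had values of 12.8 and 7.46, the membrane ring gene Atp5g2 11.8 and 7.59, Atp5mpl 11.5 and 8.20, and Atp5s, known as coupling factor B, 11.0 and 5.98. The lowest percentile of these 4 in either library was 76.9. Atp5l (3.13 and 2.91), a small membrane subunit whose highest peaks of the libraries did not overlap, and Atp5j2 (5.26 and 3.17) were lowest. The 3 Atp5g genes encode the same mature ring subunit with different import sequences. Atp5g1 had 11.3 and 5.88 and Atp5g3 had 5.30 and 4.34, so Atp5g1 was 2.13 and 1.35 times and Atp5g2 2.23 and 1.75 times the value of Atp5g3. The order from Atp5g2 to Atp5g1 to Atp5g3 held in both animals, with Atp5g2 and Atp5g1 close together in replicate 1.

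Of the 7 members not open in both libraries, 4 were Cox4i2, Cox6b2, Cox7b2 and Cox8c. The Atp5o read-through model had a peak of 0.269 in replicate 2 and none in replicate 1, while the usual Atp5o model had 5.59 and 3.63. The other 2, Ndufa13 and Atp5f1, had strong peaks just outside the 500 bp window. Ndufa13 encodes a complex I subunit also known as GRIM-19. Its annotated start is at position 69902558 of chromosome 8, and peaks of 15.5 and 8.27 lay 583 and 563 bp from it on 1 side, and peaks of 8.58 and 9.23 lay 778 and 758 bp away on the other. Atp5f1, a subunit of the peripheral stalk, has its start at 105960099 of chromosome 3 in GENCODE, and peaks of 9.47 and 6.38 lay 619 and 699 bp from it. RefSeq starts that gene, on the minus strand, at 105959263, inside both of these peaks. With a window of 1000 bp, 81 members were open in both libraries. The remaining 5 were the 4 closed isoforms of complex IV and the read-through model.

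Promoters of members were rich in CpG. The CpG content of the window from 250 bp before to 50 bp after the start site, as observed over expected CpG, had a median of 0.804 in members and 0.586 in all genes. It was above 0.6 (CpG-rich) in 63 of 86 members (73.3%), beside 48.9% of all genes. Of the CpG-rich members 62 of 63 were open in both libraries, beside 87.2% of all CpG-rich genes. Of the CpG-poor members 17 of 23 were open, beside 22.8% of all CpG-poor genes. Median percentiles of the open CpG-rich members were 67.1 and 69.0, beside 57.7 and 58.8 for all such genes, and those of open CpG-poor members 47.7 and 41.2, beside 28.9 and 28.9. In each class the members were thus open more often, and higher, than all genes of that class. The classes rest on the cut at 0.6 alone, and CpG content within a class was not matched. The isoforms lay at opposite ends: Cox6a2 had 0.14, Cox8b 0.115 and Cox7a1 0.304, beside 1.03 at Cox6a1, 0.842 at Cox8a and 0.833 at Cox7a2. The median GC content of open members, 56.3%, was lower than the 62.0% of all genes open in both libraries.

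Promoter peaks of members lay close to the start site. Their median width was 180 bp in replicate 1 and 240 bp in replicate 2, beside 200 and 260 bp for all genes open in both libraries. The run of bases with the lowest q-value lay within 100 bp of the start site at 67 of 79 members (84.8%) in replicate 1 and at 63 (79.7%) in replicate 2. For all genes open in both libraries these shares were 71.1% and 65.6%. Its median position in members was 16 bp before the start site in replicate 1 and 6.5 bp before it in replicate 2, beside 38 and 30 bp before it in all open genes. The extent of opening was close to that of other open genes: a median of 632 and 819 bases below a q-value of 0.05 in members, beside 634 and 823. Between the libraries this run lay within 20 bp at 41 of 79 members, a count that was not made over all open genes.

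All 79 open members held a footprint in the promoter peak of each library, beside 97.4% of genes open in both. Footprints of both libraries that overlapped were found at 73 of 79, beside 86.7%. Ndufc2, Uqcrc2, Cox6a2, Cox7a2l, Cox7b and Atp5l had none that overlapped in their highest promoter peaks. At Cox6a2 and Atp5l these peaks themselves did not overlap between libraries, and Atp5l had footprints of both libraries at its NRF1 match. Over the open members, the median count of footprints per promoter peak was 3 in replicate 1 and 5 in replicate 2, with 3 in common. For all genes open in both libraries these medians were 4, 5 and 2. Among members, most were found at Atp5h, a peripheral stalk subunit of ATP synthase, with 7 in common. Ndufa12, Atp5c1 (the gamma subunit, the central shaft) and Atp5g1 followed with 6 each. Footprints carry no usable score, so they were used by position.

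The promoter windows were searched on both strands for 11 motifs, and the sequences shown above are examples. The searched letters were CGCATGCG (NRF1 core), CCGGAAG (ETS, the GABP type), AAGATGGC (YY1), AAGGTCA (ERR), TGACGTCA (CRE), GGGCGG (Sp/Klf), CCAAT (bound by NF-Y), TATAAA (the TATA box), ACTACAATT (ZNF143), CAGCTG (E-box of the MyoD type) and, by its name alone, MEF2. Matches of different motifs may overlap in a window, and each was counted. NRF1 matches were in 6 members (6.98%), beside 2.80% of all genes and 4.17% of the genes open in both libraries. ERR matches were in 11 members (12.8%), beside 3.89% and 2.63%, and YY1 matches in 9 (10.5%), beside 3.13% and 4.76%. These 3 motifs were more common in members than in either set of genes. CRE matches were in 5 members (5.81%), beside 2.59% and 3.91%.

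The ETS motif was in 16 members (18.6%), which is above the 11.7% of all genes and near the 19.2% of open genes. Sp/Klf matches were in 37 members (43.0%), beside 47.1% of all genes and 69.7% of the open ones, so members had fewer than other open promoters. CCAAT was in 33 (38.4%), beside 38.7% and 39.0%, and the E-box in 15 (17.4%), beside 15.5% and 14.4%. TATAAA was in 8 (9.3%), beside 12.2% and 5.98%. ZNF143 was in 1 (1.16%), beside 0.581% and 0.844%, and MEF2 in 1 (1.16%), beside 2.67% and 1.49%. That MEF2 match was in Cox6a2, 28 bp before its start site, and was not covered by footprints of both libraries, as defined below. At least 1 match to NRF1, ETS, YY1 or ERR was in 32 members, and Atp5l held both NRF1 and ERR. Neither count was made over all genes, so no reading is drawn from them.

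**Figure D4:**
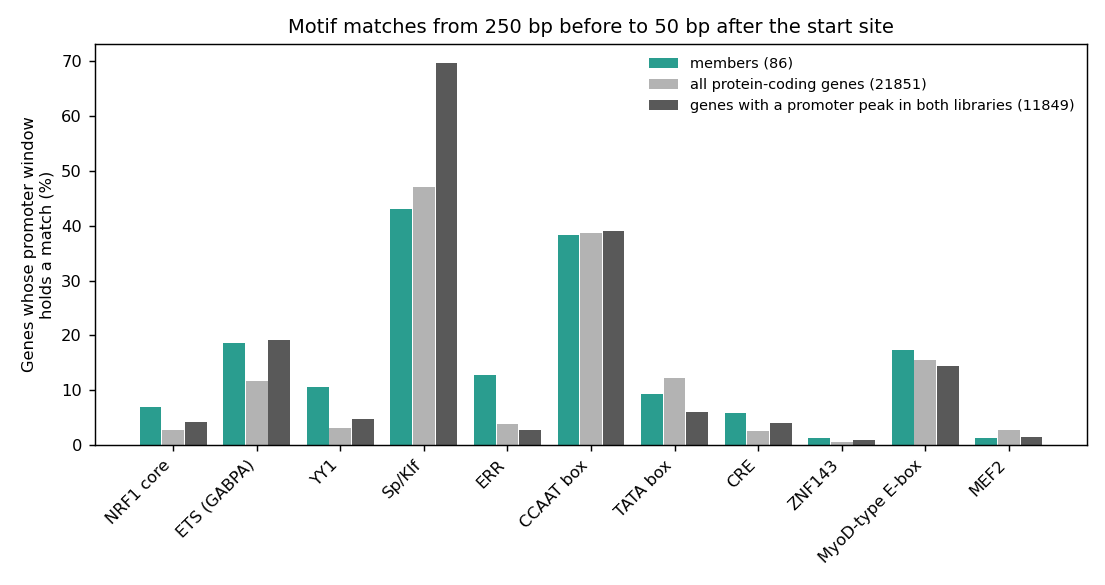
Share of promoter windows (y axis, %) with a match to each motif (x axis) in the 86 members, in all protein-coding genes and in the genes open in both libraries. ERR stands at 12.8% in members beside 3.89% and 2.63%, and Sp/Klf at 43.0% beside 47.1% and 69.7%.

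Footprints covered some motifs and not others. A match was counted as covered where, in each library taken separately, at least 50% of its bases lay in footprints. All 6 members with an NRF1 match had a covered one: Cox6a1, Atp5g2, Ndufa11, Uqcr11, Atp5k and Atp5l. Of all open genes with an NRF1 match 85.2% had a covered one. A covered match was found in 4 of the 5 open members with a CRE (beside 78.2% of all open genes with one), in 17 of 34 with Sp/Klf (beside 56.4%), in 5 of 16 with ETS (beside 27.9%) and in 5 of 30 with CCAAT (beside 20.3%). Of the 11 members with an ERR match only Uqcrq, a complex III subunit, had a covered one, beside 5.45% of all open genes with a match, and of the 9 with YY1 there were 0, beside 16.5%. Coverage thus followed the motif in members much as it did in all open genes. An uncovered match says only that footprints held less than 50% of its bases in 1 or both libraries.

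Position and direction set several motifs apart. ERR matches lay within 50 bp of the start site in 7 of 11 cases (63.6%), beside 21.4% of the ERR matches in all open genes. YY1 matches did so in 8 of 9 (88.9%), beside 61.2%, and 8 of 9 (88.9%) read along the gene, beside 67.4%. Their usual place was just after the start site, as in the Ndufa9, Ndufs6, Ndufa3 and Ndufb8 lines above, where AAGATGGC begins 11, 14, 23 and 37 bp from it. At ETS matches only 3 of 19 (15.8%) read CCGGAAG along the gene, beside 51.8% in all open genes, and the others read CTTCCGG, as in the Uqcrh and Cox6a1 lines. NRF1, CRE and E-box letters read the same on both strands and have no direction. These counts are small, and motifs were read by exact letters in 1 reference genome, whereas the animals carry a CAST/EiJ copy as well.

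**Figure D5:**
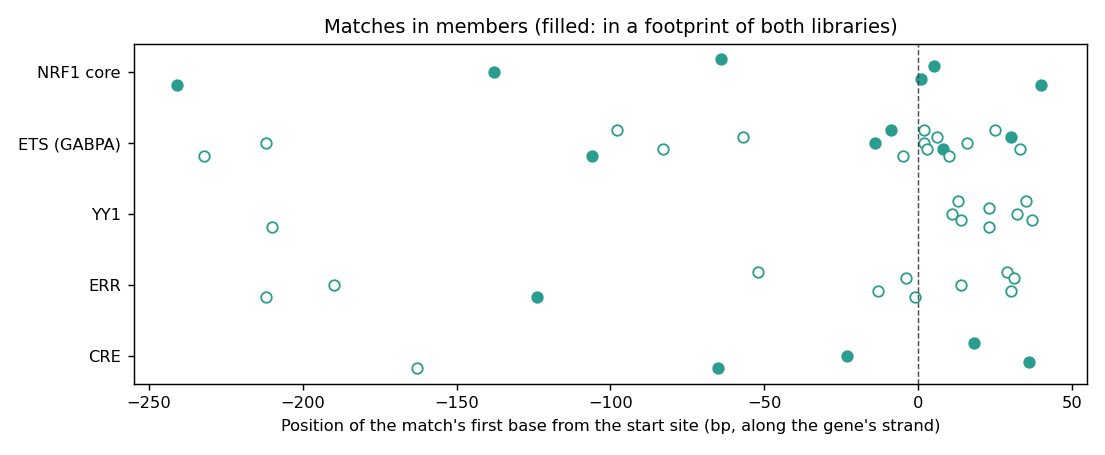
Position of each match (x axis, bp from the start site along the gene's strand, dashed line at the start site) in members for 5 motifs, filled where footprints of both libraries covered it; vertical scatter within a row has no meaning. All 6 NRF1 matches are filled and lie from -241 to 40 bp, and all 9 YY1 matches are open circles, 8 of them after the start site.

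Many members stood head to head with another gene. A coding start site of another gene lay on the opposite strand within 500 bp at 26 of 86 members (30.2%), beside 9.21% of all genes. The distances ran from 3 to 379 bp with a median of 83 bp. Of these members 25 of 26 were open in both libraries, and all 25 shared their replicate 1 promoter peak with the partner. Such sharing follows largely from the rule, since a peak counts for every start site within 500 bp. Neither share was computed over all genes with such a partner. Of the 60 others 54 were open. Several partners, named after their values were seen, also serve mitochondria or translation: Mrpl36 beside Ndufs6 and Mrpl47 beside Ndufb5 encode mitochondrial ribosomal proteins, Timm8b beside Sdhd an import factor, Rps28 beside Ndufa7 a ribosomal protein and Eef1b2 beside Ndufs1 an elongation factor. Gabpa, which encodes the DNA-binding subunit of GABP, stands 379 bp from Atp5j, and both genes took the same values, 5.88 and 3.56. A value at a shared promoter cannot be assigned to either gene. The median percentile of open members was 59.0 with a partner and 62.2 without in replicate 1, and 55.2 and 68.3 in replicate 2.

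Members on the X chromosome were open but low. Ndufa1 had percentiles of 22.8 and 15.8, Ndufb11 15.7 and 24.5, and Cox7b 23.8 and 9.52. All X-linked genes that were open had medians of 26.5 and 23.0, and autosomal genes 52.5 and 53.8, so the 3 members lay below the median of their chromosome apart from Ndufb11 in replicate 2. Males carry a single X, and its part in these values was not tested.

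Distal open regions lay near some of the members. Regions over 1 kb from every annotated start site, with a peak in each library, lay within the gene body or 10 kb on either side of 23 of 86 members (26.7%), beside 32.2% of all genes. Members are short, with a median span of 7370 bp beside 17380 bp. The order turned with other limits: within 50 kb the shares were 61.6% of members beside 58.2%, and with the longer peak lists 50% beside 45.1%. The 41 distinct regions had values of 0.999 to 5.98 in replicate 1 and 0.644 to 7.61 in replicate 2. The strongest lay 1.96 kb before the GENCODE start of Ndufa4l2, at chr10:127512901-127513120, with 5.98 and 7.61. That was higher than the gene's own promoter (1.65 and 1.53), and 4 more regions lay around the gene. RefSeq starts this gene at 127509274, further upstream, so the strongest region lies inside the RefSeq gene. By that start 2 of the other regions lie at the promoter, 34 and 383 bp from it, with values of 2.39 and 2.77 and of 1.62 and 1.30 in replicates 1 and 2. Near Cox8b, whose promoter was low, 3 regions lay 2.10, 2.99 and 8.32 kb upstream with values of 1.96 and 1.32, 1.85 and 2.97, and 1.85 and 2.18. These were above the Cox8b promoter value in replicate 2, and close to it in replicate 1. The closed gene Cox4i2 had 1 region of 5.30 and 6.59, which lay 12.5 kb downstream of its start site.

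Other members with at least 2 such regions were Ndufs1, Sdhb, Sdhc, Cox4i1, Atp5h, Atp5l and both Atp5o models. The strongest of these lay after the Atp5h gene, at 5.66 and 6.09, and the other Atp5h region had 3.86 and 4.87. Those of Ndufs1 had 4.83 and 3.86, and 2.29 and 2.77. The Atp5o read-through model spans far more sequence and held 8, of which the usual model shared 2. Which gene a distal region serves cannot be read from its position.

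Genes that build or regulate the chain were open about as often as its subunits. Of 46 assembly factors 45 were open in both libraries, with median percentiles of 66.6 and 76.8, and Sdhaf1, of succinate dehydrogenase assembly, was not. Of 11 genes of the mobile carriers 10 were open. Cycs, the somatic cytochrome c gene, had 16.4 and 9.99, above every subunit in replicate 1, and the testis gene Cyct had no peak. Of 11 regulators 10 were open. Esrra, which encodes ERR alpha, had 21.9 and 11.4, and Yy1 had 13.8 and 8.39. These values were at the 99.8th and 98.7th and at the 92.5th and 92.9th percentiles. Nrf1 had 6.25 and 4.27, and Gabpb1, the other GABP subunit, 3.30 and 5.30. The mitochondrial transcription genes Tfam (8.69 and 5.58), Tfb1m (11.7 and 6.84) and Tfb2m (12.1 and 8.32) had a lowest percentile of 72.0. Ppargc1a, which encodes PGC-1 alpha, had a peak of 0.756 in replicate 2 and none in replicate 1, and Ppargc1b had 3.79 and 2.75.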

How the data were processed

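DNase-seq libraries of 2 mice of 1 group were used. Per library the authors deposited 2 peak lists with a signal value (the height of cleavage density) for every peak, a table of q-values for runs of bases below 0.05, and footprints whose score is constant, so the deposited score was not used. Peaks were called per library. The assembly is mm10, per the labels. For the aligner, the peak caller, the scaling and the handling of CAST/EiJ alleles, details were not given in the sources used here. Depth in reads is unknown, so no interval is given.

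Peaks of the shorter lists were joined to start sites of protein-coding transcripts in GENCODE release 21 on GRCm38.p6 by scripts (python 3.11.15, pandas 2.3.3, pysam 0.24.0, samtools 1.23.1), which were tested on simulated data. For sequence windows and positions each gene had 1 start site, the one nearest its highest promoter peak, otherwise the most 5′ one. Footprints in common overlapped between libraries inside promoter peaks. Counts of members stand beside the same counts over all genes, except where none was made, and no set test was run.

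The members and lists were chosen with earlier results of these data known. The genes named were, in each complex, the 4 with the highest and the 2 with the lowest value by the lower of both percentiles, members without a peak, all isoform sets, members with 2 or more distal regions and those with the most common footprints. One member that the rule names is not reported here.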

Additional observations from a re-analysis of the deposited data

How the results depend on the processing

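The count of members open in both libraries, 79, ranged from 65 (peaks overlapping by 50% of each) to 81 (1000 bp window) over other lists, windows, start sites and overlaps. In those 2 settings 42.5% and 55.5% of all genes were open. With RefSeq start sites, added after seeing the data, it was 67 of 69 members, beside 55.9% of genes in the same setting. Replicate 1 alone gave 79, beside 55.8% of all genes, and replicate 2 alone gave 80, beside 57.1%. The median percentile of members, by the mean of both libraries, was 67.16, beside 52.31 for all genes open in both. With replicate 1 alone it was 61.93, beside 51.39, and with replicate 2 alone 65.86, beside 52.54. Members with a distal region numbered 23, and 53 within 50 kb, 6 in the gene body only, 43 with the longer peak lists and 28 to 35 with 1 library. As shares of members beside all genes these were 26.7% beside 32.2%, and 61.6% beside 58.2% within 50 kb. In the gene body they were 6.98% beside 18.9%, and with the longer lists 50% beside 45.1%. Replicate 1 alone gave 40.7% beside 42.6%, and replicate 2 alone 32.6% beside 38.6%. The order thus turned in 2 settings. With the replicate 1 peak searched in place of the promoter window, YY1 matches were in 16 members (18.6% beside 4.53% of genes with a peak), TATA boxes in 3 (3.49% beside 2.72%) and E-boxes in 8 (9.3% beside 12.1%). With 100 bp before the start site searched, TATA boxes were in 2 (2.33% beside 6.71% of all genes) and E-boxes in 9 (10.5% beside 8.86%). No paired analysis was possible because both libraries belong to 1 group. A gene without a peak has none at the authors' threshold, at unknown depth.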
